A study of Mus musculus with 6 samples.

Results

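The 10 genes described here encode the MHC class II molecule and the proteins that load it with peptide (H2-Aa, H2-Ab1, H2-Eb1, Cd74, Ciita, H2-DMa, H2-DMb1, H2-DMb2, H2-Oa and H2-Ob). They were chosen by symbol among 19349 genes counted in liver non-parenchymal cells, the cells of the liver other than hepatocytes, and all 10 had counts in each of the 6 libraries. The libraries came from male C57BL/6J mice, 8 weeks old at the start, that were given a high-fat diet for 24 weeks as a model of nonalcoholic steatohepatitis (NASH). In the last 8 weeks the mice received DMSO vehicle (3 libraries) or ginkgetin, a plant biflavone, at 10 mg/kg/day (3 libraries), both intragastrically. No chow-fed library was used here, so every library carries the diet, and the labels do not say how many animals a library holds.

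Class II molecules present peptides from endosomes to CD4 T cells. H2-Aa pairs with H2-Ab1 to form I-A, H2-Eb1 is the beta chain of I-E, and Cd74, the invariant chain, fills the groove until it is cut down to a short fragment. H2-DM, made of H2-DMa with H2-DMb1 or H2-DMb2, exchanges that fragment for peptide, and H2-O, made of H2-Oa and H2-Ob, restrains H2-DM. Ciita, the class II transactivator, is brought to the promoters of these genes by a complex that includes RFX5 and NF-Y, and dendritic cells, B cells and macrophages are the textbook presenting cells.

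In GRCm38 coordinates, 8 of the 10 genes lay on chromosome 17 between 34092379 and 34316674, a stretch of 224 kb that runs from H2-Oa to H2-Eb1. Ciita lay on chromosome 16 between 10480014 and 10531064. RefSeq promoters of 300 bases, from 250 before to 50 after the start, were matched for 7 of the 10 genes (8 promoters in GRCm38.p6). Those of 4 genes are shown because their levels separate the cell classes below: H2-Aa as the common class II gene, H2-DMb1 and H2-DMb2 as a pair with opposite levels in B cells and macrophages, and H2-Ob as a gene high in B cell-like and dendritic-like cells. The positions are H2-Aa at chr17:34287774-34288073 on the minus strand, H2-DMb1 at chr17:34152941-34153240, H2-DMb2 at chr17:34144999-34145298 and H2-Ob at chr17:34238655-34238954 on the plus strand, each read 5′ to 3′. Capitals mark TGATTGG, which holds the core letters bound by NF-Y, and ATGATGC, both searched on both strands and chosen after the promoters had been read.
H2-Aa: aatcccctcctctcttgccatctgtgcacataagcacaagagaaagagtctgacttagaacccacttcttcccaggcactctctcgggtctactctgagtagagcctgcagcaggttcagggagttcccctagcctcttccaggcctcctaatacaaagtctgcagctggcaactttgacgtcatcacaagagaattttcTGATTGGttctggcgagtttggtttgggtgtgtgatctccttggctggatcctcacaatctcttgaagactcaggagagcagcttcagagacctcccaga
H2-DMb1: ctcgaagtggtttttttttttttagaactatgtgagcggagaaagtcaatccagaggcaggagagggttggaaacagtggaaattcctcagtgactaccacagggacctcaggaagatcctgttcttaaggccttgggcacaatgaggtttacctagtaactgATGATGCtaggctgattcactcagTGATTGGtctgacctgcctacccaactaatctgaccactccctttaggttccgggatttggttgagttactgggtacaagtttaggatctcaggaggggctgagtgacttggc
H2-DMb2: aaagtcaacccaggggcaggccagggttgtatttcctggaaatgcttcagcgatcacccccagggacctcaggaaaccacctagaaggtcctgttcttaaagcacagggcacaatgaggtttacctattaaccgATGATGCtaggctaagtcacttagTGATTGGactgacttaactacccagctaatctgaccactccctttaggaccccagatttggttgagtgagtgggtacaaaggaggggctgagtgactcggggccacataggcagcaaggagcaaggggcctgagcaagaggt
H2-Ob: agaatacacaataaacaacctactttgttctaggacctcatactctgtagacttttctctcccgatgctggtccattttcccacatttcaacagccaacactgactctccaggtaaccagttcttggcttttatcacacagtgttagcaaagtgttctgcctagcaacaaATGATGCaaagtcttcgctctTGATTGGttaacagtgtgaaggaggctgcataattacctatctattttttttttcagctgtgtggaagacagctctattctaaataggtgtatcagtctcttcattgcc
TGATTGG was found in 6 of the 8 promoters (H2-Aa, H2-DMb1, H2-DMb2, H2-Eb1, H2-Oa and H2-Ob), against 7.82% of 32851 RefSeq promoters of the same length. Its first base lay between 45 bases before the start in H2-Oa and 92 bases before it in H2-DMb2. ATGATGC was found in 4 of the 8, against 2.46% of all promoters, and its first base preceded that of TGATTGG by 24 bases in H2-DMb1 and H2-DMb2, by 23 in H2-Eb1 and by 21 in H2-Ob. Neither word was in either H2-DMa promoter. The match is a description of letters and not of binding.

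Libraries held 3577 to 8119 barcodes and 13128697 to 61796882 unique molecular identifiers (UMIs, single counted transcripts), and 27544 of 33168 barcodes with 250 to 5000 genes and under 5% mitochondrial UMIs were kept. Replicate 3 of both groups stood apart: its barcodes were of another set, 2253 genes had counts there and none in replicates 1 and 2, and 946 genes showed the reverse. No 2 libraries shared more than 85 barcodes. Cells were clustered without the 10 genes, and clusters were named from marker genes as B cell-like (2633 cells), dendritic-like (1425), macrophage-like (4022, of which 2232 were Kupffer-like and 1790 other macrophages), monocyte-like (2171) and endothelial-like (7196). Kupffer cells are the liver's resident macrophages. The defining markers were present in each class, such as Cd79a at 1282 to 2930 CPM (counts per 1000000) in B cell-like cells and Clec4f at 2064 to 4825 CPM in Kupffer-like cells, though other Kupffer markers differed between the groups as given below, and 2668 cells were left unnamed.

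Levels are given as CPM, the UMIs of a gene per 1000000 UMIs summed over all cells of a class in a library, with replicates 1, 2 and 3 of a group in turn. CPM is not corrected for transcript length, so the level of a gene is compared between classes and groups and not with that of another gene. Shares and ratios over several genes are given only to set classes and libraries side by side. Fold changes are ginkgetin against vehicle on the log2 scale with their standard error (SE), from edgeR's quasi-likelihood test on the sums, with p-values adjusted (Benjamini-Hochberg) over all genes of a class. A gene was called at an adjusted p under 0.05 and a fold over 2. The labels do not say that replicates are separate animals, so the tests measure the spread between these libraries. Replicates with the same number in both groups deviated together, but replicates 1 and 2 with different numbers did so about as much. This shows replicate 3 apart and not that same-numbered libraries are pairs. A fit with the replicate number as a block is given where it alters a call.

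All class II genes were high in dendritic-like cells, but they did not share one order across classes. For H2-Aa, the mean over 6 libraries was 8204 CPM in other macrophages, 7705 in dendritic-like, 3759 in Kupffer-like, 3391 in B cell-like and 2207 in monocyte-like cells, and 80.0 in endothelial-like and 63.3 in T cell-like cells. Other macrophages exceeded dendritic-like cells in only 3 of 6 libraries, so these neighbours did not differ beyond their spread (log2 difference 0.10 ± 0.24, SD, n = 6). Monocyte-like cells exceeded endothelial-like cells in 6 of 6 libraries by 4.93 ± 1.02 on the log2 scale (SD, n = 6). H2-Ab1, H2-Eb1, Cd74 and H2-DMb1 also had their highest mean in other macrophages, with a log2 difference from dendritic-like cells of 0.14 to 0.25, and Ciita and H2-DMa had theirs in dendritic-like cells. H2-DMb2, H2-Oa and H2-Ob were highest in B cell-like cells.

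**Figure D1:**
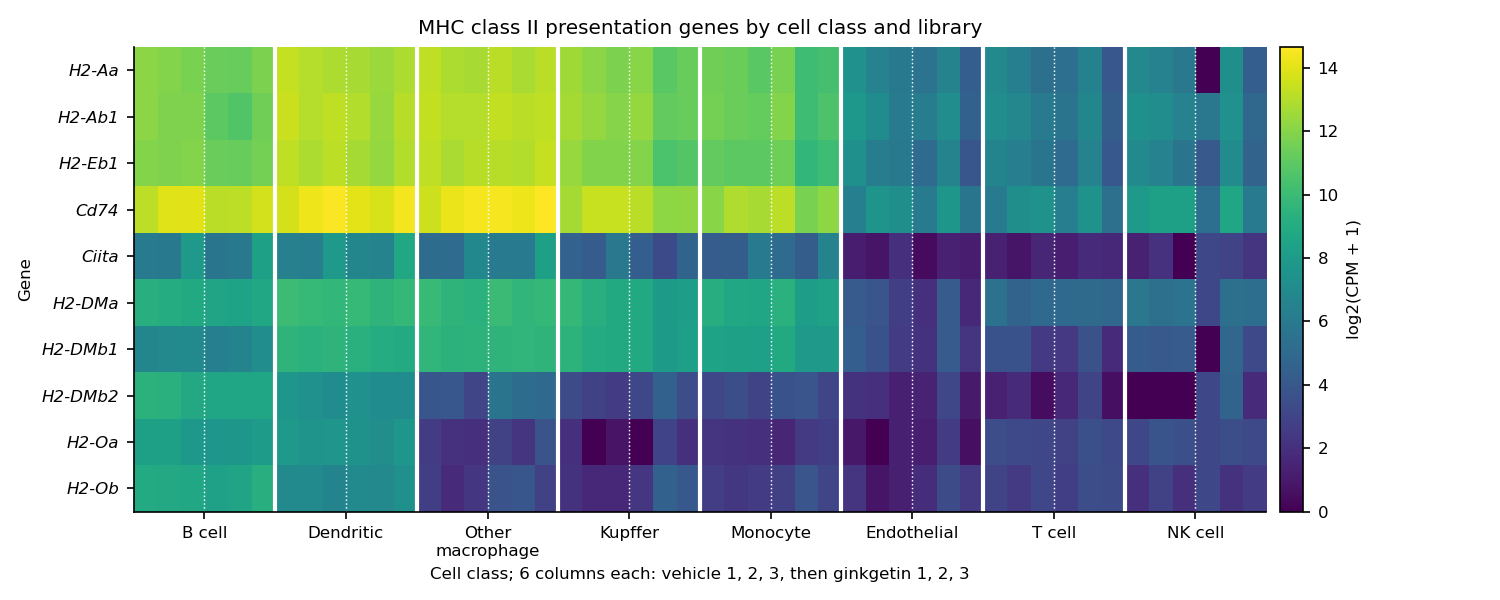
Heatmap of log2(CPM + 1) for the 10 class II genes (rows) in 8 cell classes, with 1 column per library (vehicle replicates 1 to 3, then ginkgetin replicates 1 to 3). The core genes are high in every presenting class, and H2-Oa and H2-Ob are high only in the B cell-like and dendritic-like columns among those drawn.

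Of 70 pairs of neighbouring classes, 28 had an unadjusted p under 0.05 in a two-sided exact sign-flip permutation test over the 6 libraries, whose smallest p is 0.03125, and none passed after adjustment (lowest adjusted p 0.0781). When cells were assigned 1 by 1 from their marker level in place of clusters, 7 members were highest in dendritic-like cells and none in other macrophages.

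Of the restraining pair H2-Oa and H2-Ob, H2-Ob separated B cell-like from dendritic-like cells in every library. H2-Ob was 488, 466 and 440 CPM in vehicle and 339, 379 and 593 CPM in ginkgetin B cell-like cells. Dendritic-like cells held 121, 125 and 97.1 CPM of H2-Ob in vehicle and 124, 117 and 162 CPM in ginkgetin libraries. All 6 B cell-like values were above all 6 dendritic-like values, a log2 difference of 1.84 ± 0.25 (SD, n = 6). H2-Oa differed less between these classes, with overlapping ranges of 208 to 325 CPM and 151 to 239 CPM (log2 difference 0.42 ± 0.20, SD, n = 6), but was higher in B cell-like cells in 6 of 6 libraries. H2-Oa was lower in other macrophages (3.02 to 12.4 CPM) than in T cell-like cells (6.49 to 10.8 CPM) in 5 of 6 libraries, and H2-Ob was at 2.37 to 14.4 CPM there against 4.68 to 10.1 CPM in T cell-like cells. H2-Oa in T cell-like cells was itself above the 0 to 4.88 CPM of endothelial-like cells, so no background level could be set for the pair, and it was not read as expressed or absent in the macrophages.

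H2-Oa and H2-Ob made up 37.3%, 38.0% and 38.3% of the UMIs of the 5 H2-O and H2-DM genes in vehicle B cell-like cells. The ginkgetin values were 38.5%, 40.9% and 46.1%, all above the vehicle values. In dendritic-like cells the share was 15.2%, 15.7% and 14.6% under vehicle and 14.97%, 16.0% and 19.6% under ginkgetin, and the groups overlapped. The B cell-like share was higher by 23.8 percentage points ± 1.64 (SD, n = 6) in 6 of 6 libraries (two-sided exact sign-flip permutation p = 0.03125, the smallest this test can give). With H2-DMa as the only H2-DM gene the difference was 34.1 points. Between the treatment groups the share gave an exact permutation p of 0.1 in B cell-like, macrophage-like, Kupffer-like and endothelial-like cells. This is the smallest possible with 3 libraries against 3 (adjusted p 0.15 over 6 classes, exact permutation). It was 0.3 in dendritic-like and 0.4 in monocyte-like cells. Macrophage-like and monocyte-like cells held 0.31% to 3.25% of H2-O in this sum, and Kupffer-like cells alone 0.19% to 5.22%.

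The H2-DM beta chains were used in opposite proportion by B cells and macrophages. H2-DMb2 supplied 86.4%, 84.7% and 78.3% of the H2-DMb1 plus H2-DMb2 UMIs in vehicle and 84.1%, 81.3% and 74.4% in ginkgetin B cell-like cells. Dendritic-like cells held 22.2%, 20.4% and 15.6% under vehicle and 21.5%, 20.8% and 21.4% under ginkgetin. The share was 1.03% to 8.20% in Kupffer-like and 1.04% to 6.20% in other macrophages. These macrophage ranges overlapped each other, and both lay below the dendritic-like values, which lay below the B cell-like ones. This pattern was noticed in the data and is given as a description. Among dendritic-like cells the share was 8.92% to 15.3% in type 1 (cDC1-like), 19.2% to 33.1% in type 2 (cDC2-like) and 49.1% to 64.3% in mature, Ccr7-marked cells (5 libraries, 22 to 112 UMIs each). The transcripts of H2-DMb1 (1404 bases) and H2-DMb2 (1424 bases) were 94.4% identical over 1255 aligned bases, with 70 differing bases, so the counting could have split reads between them and the exact share is uncertain.

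**Figure D2:**
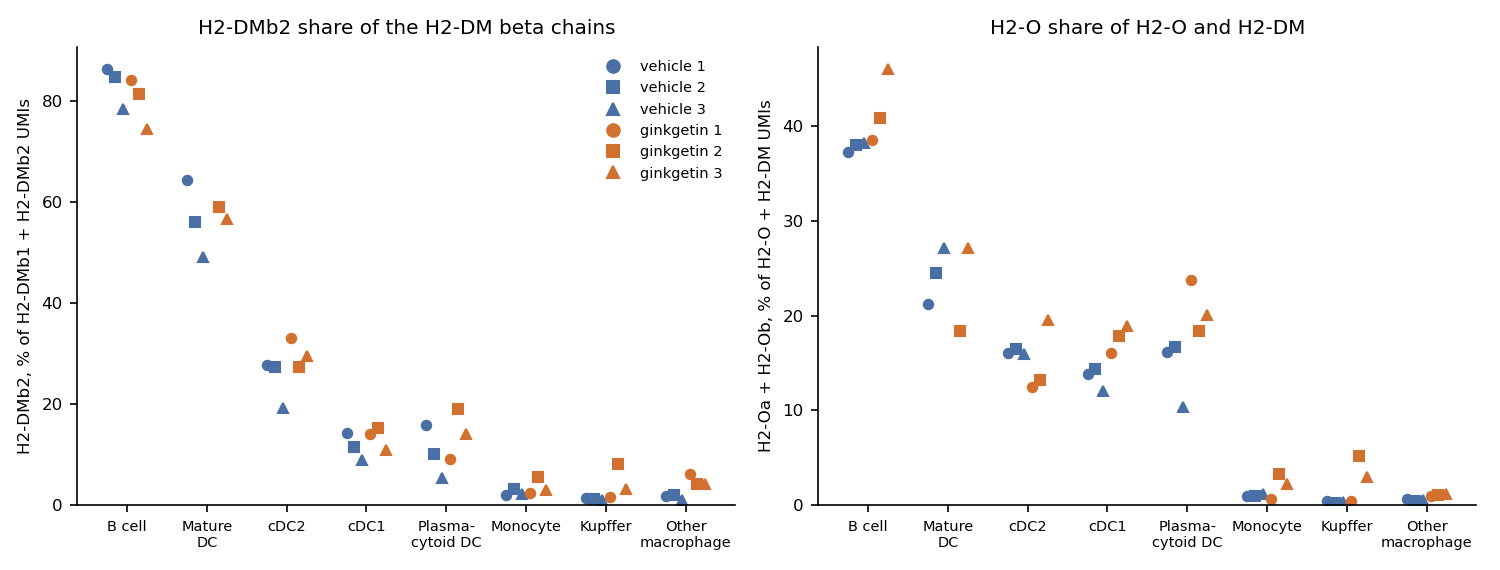
Share of H2-DMb2 in the H2-DMb1 plus H2-DMb2 UMIs (%) and share of H2-Oa plus H2-Ob in the UMIs of the H2-O and H2-DM genes (%), by cell class, with 1 point per library. The H2-DMb2 share lies at 74.4% or more in B cell-like cells and at 8.20% or less in Kupffer-like cells.

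Ciita, the transactivator, was higher in replicate 3 of both groups than in replicates 1 and 2 in B cell-like, dendritic-like, macrophage-like, Kupffer-like and monocyte-like cells, but not in endothelial-like cells. In B cell-like cells it was 63.6, 58.9 and 242 CPM under vehicle and 51.0, 59.9 and 323 CPM under ginkgetin. Replicate 3 was thus the high library of both groups, on average 4.84 times replicates 1 and 2, and in dendritic-like, macrophage-like, Kupffer-like and monocyte-like cells this ratio was 3.71, 2.66, 2.38 and 3.52. The part of the different barcode set and gene table of replicate 3 in this difference was not tested. Cd74 moved by library as well: its ratio to the mean of H2-Aa, H2-Ab1 and H2-Eb1 was lowest in vehicle replicate 1 in all 6 classes tested and in T cell-like cells (2.23 against 3.77 to 4.51 in B cell-like, 1.29 against 2.36 to 2.73 in dendritic-like cells), so values of Cd74 in that library stand apart. NK cell-like cells were the exception.

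Vehicle and ginkgetin were then compared within each class. Most members tested had a log2 fold change below 0 in B cell-like, dendritic-like, macrophage-like, Kupffer-like, monocyte-like and endothelial-like cells, but in classical monocyte-like cells, the larger part of the monocyte-like ones, 3 of 8 did. None of them passed the test in any of these classes without the replicate block. The background of called genes was 0.0% of 7005 in B cell-like, 0.0% of 8625 in dendritic-like, 8.42% of 10005 in macrophage-like, 9.16% of 9044 in Kupffer-like, 0.0499% of 8019 in monocyte-like and 0.684% of 10095 in endothelial-like cells. At an unadjusted p under 0.05 (edgeR) the members were 1 in B cell-like, 3 in macrophage-like and 5 in Kupffer-like cells. They were 0 in dendritic-like, monocyte-like and endothelial-like cells. Of all genes, 12.5% in B cell-like, 29.4% in macrophage-like and 31.0% in Kupffer-like cells were under that p. The share was 16.8% in dendritic-like, 14.9% in monocyte-like and 13.9% in endothelial-like cells. In patrolling monocyte-like cells, the smaller part of the monocyte-like ones, 4 of 6 members were (10.8% of genes). In other macrophages 1 of 9 was (15.2%). In B cell-like and dendritic-like cells 874 and 1451 genes were at that p and 0 were called, while DESeq2 called 26 and 110. The median log2 fold change of the members tested was -0.51 in B cell-like (10 members, 9 below 0), -0.23 in dendritic-like (10, 8), -0.77 in macrophage-like (10, 7; -0.001 in other macrophages alone), -1.12 in Kupffer-like (8, 7), -0.12 in monocyte-like (9, 6) and -0.83 in endothelial-like cells (7, 6). The median over all genes tested lay between -0.002 and 0.032 in these classes.

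**Figure D3:**
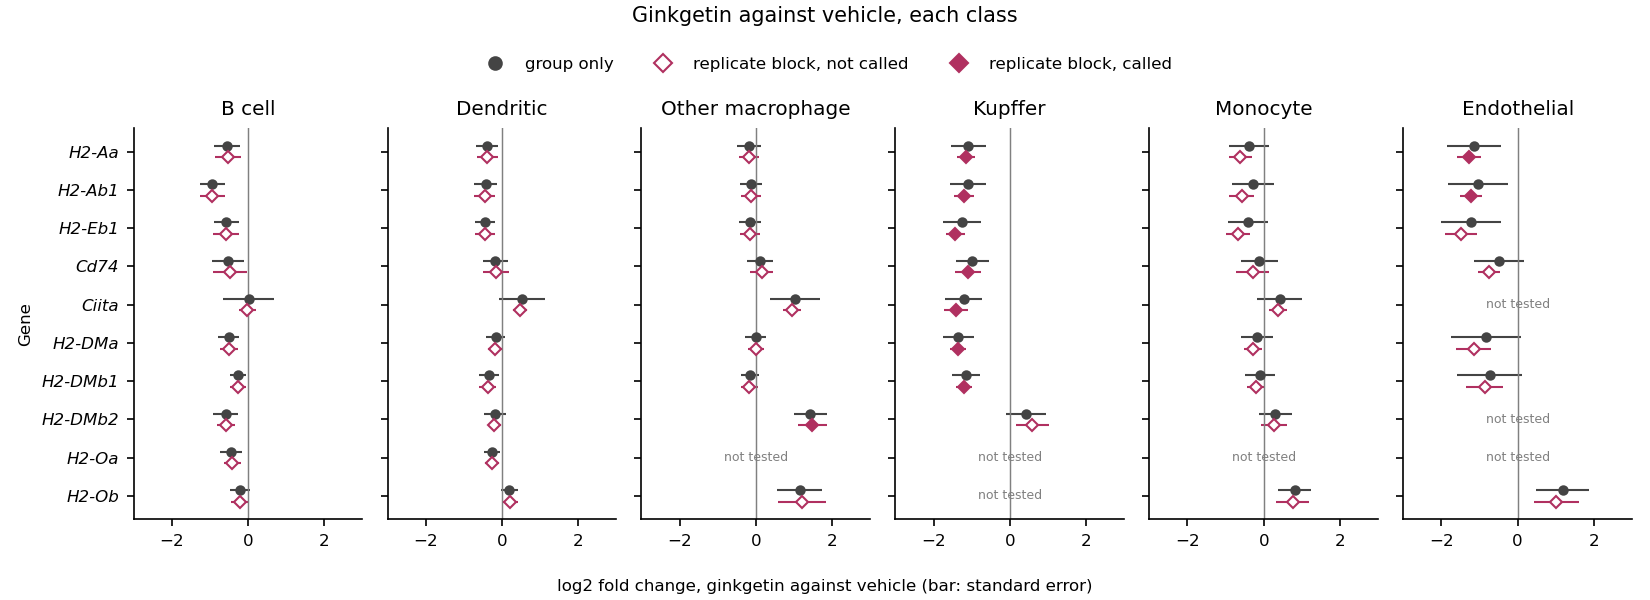
Log2 fold change ± SE of each member, ginkgetin against vehicle, in 6 cell classes (x axis, log2). Circles, all drawn solid, are the fit on group alone, in which no member was called. Diamonds are the fit with the replicate number as a block, and a filled diamond is a called gene. The Kupffer-like panel has the lowest median of the circles, -1.12, and its diamonds are filled for 7 members.

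In Kupffer-like cells the surface chains, the invariant chain, Ciita and the H2-DM chains H2-DMa and H2-DMb1 had log2 fold changes from -0.98 to -1.35 under ginkgetin. H2-Aa was 6005, 4360 and 3541 CPM under vehicle and 4277, 1939 and 2434 CPM under ginkgetin (log2 fold change -1.09, SE 0.45, edgeR adjusted p 0.15). The groups overlapped through ginkgetin replicate 1, but each ginkgetin library was below the vehicle library of its number. H2-Eb1, the I-E beta chain, was 5475, 3822 and 3774 CPM against 3909, 1474 and 1679 CPM (log2 fold change -1.26, SE 0.50, adjusted p 0.135). H2-Ab1, the I-A beta chain, was 6672, 5176 and 4160 CPM against 5149, 2222 and 2471 CPM (log2 fold change -1.09, SE 0.48, adjusted p 0.167).

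H2-DMa, which the exchanger H2-DM cannot do without, had the lowest p. It was 869, 595 and 475 CPM under vehicle and 476, 254 and 290 CPM under ginkgetin (log2 fold change -1.35, SE 0.41, edgeR adjusted p 0.0739). Only vehicle replicate 3 and ginkgetin replicate 1 touched, at 475 and 476 CPM. H2-DMb1 was 716, 521 and 488 CPM against 476, 249 and 304 CPM (log2 fold change -1.16, SE 0.37, adjusted p 0.0822). It was the member whose groups did not overlap, which held for 8.79% of all genes in the lower direction. Ciita was 23.1, 18.1 and 57.8 CPM against 20.0, 8.90 and 25.6 CPM (log2 fold change -1.21, SE 0.49, adjusted p 0.142), lower in each pair of same-numbered libraries.

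Cd74 was 6571, 10803 and 11073 CPM under vehicle and 9177, 4532 and 4824 CPM under ginkgetin in Kupffer-like cells (log2 fold change -0.98, SE 0.44, adjusted p 0.176). Replicate 1 went the other way, and vehicle replicate 1 is the library with the low Cd74 ratio given above, whose part was not tested. H2-DMb2 went the other way from H2-DMb1, at 9.78, 6.05 and 5.08 CPM against 8.001, 22.3 and 9.91 CPM (log2 fold change 0.43, adjusted p 0.624), and H2-Oa and H2-Ob were too low to be tested.

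With the replicate block, 7 of the 8 members tested in Kupffer-like cells passed, all lower, where 9.01% of all genes passed in that direction. Their log2 fold changes were -1.15 for H2-Aa (adjusted p 0.00199), -1.20 for H2-Ab1 (0.00182), -1.43 for H2-Eb1 (0.000484), -1.10 for Cd74 (0.0193), -1.41 for Ciita (0.0022), -1.35 for H2-DMa (0.000199) and -1.20 for H2-DMb1 (0.000504). The block leaves 2 residual degrees of freedom. With the barcode set as the block, 7 were called in Kupffer-like (16.9% of genes), 2 in macrophage-like (14.3%) and 3 in endothelial-like cells (4.66%). That block also called H2-DMb2, higher, in other macrophages (4.06%) and H2-Aa, lower, in patrolling monocyte-like cells (2.36%). DESeq2 without a block called 3 in Kupffer-like (12.8%) and 1 in macrophage-like cells (11.7%). Without the block, leaving out vehicle replicate 3 brought 1 member, H2-DMa, past the test, and no other left-out library did.

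**Figure D4:**
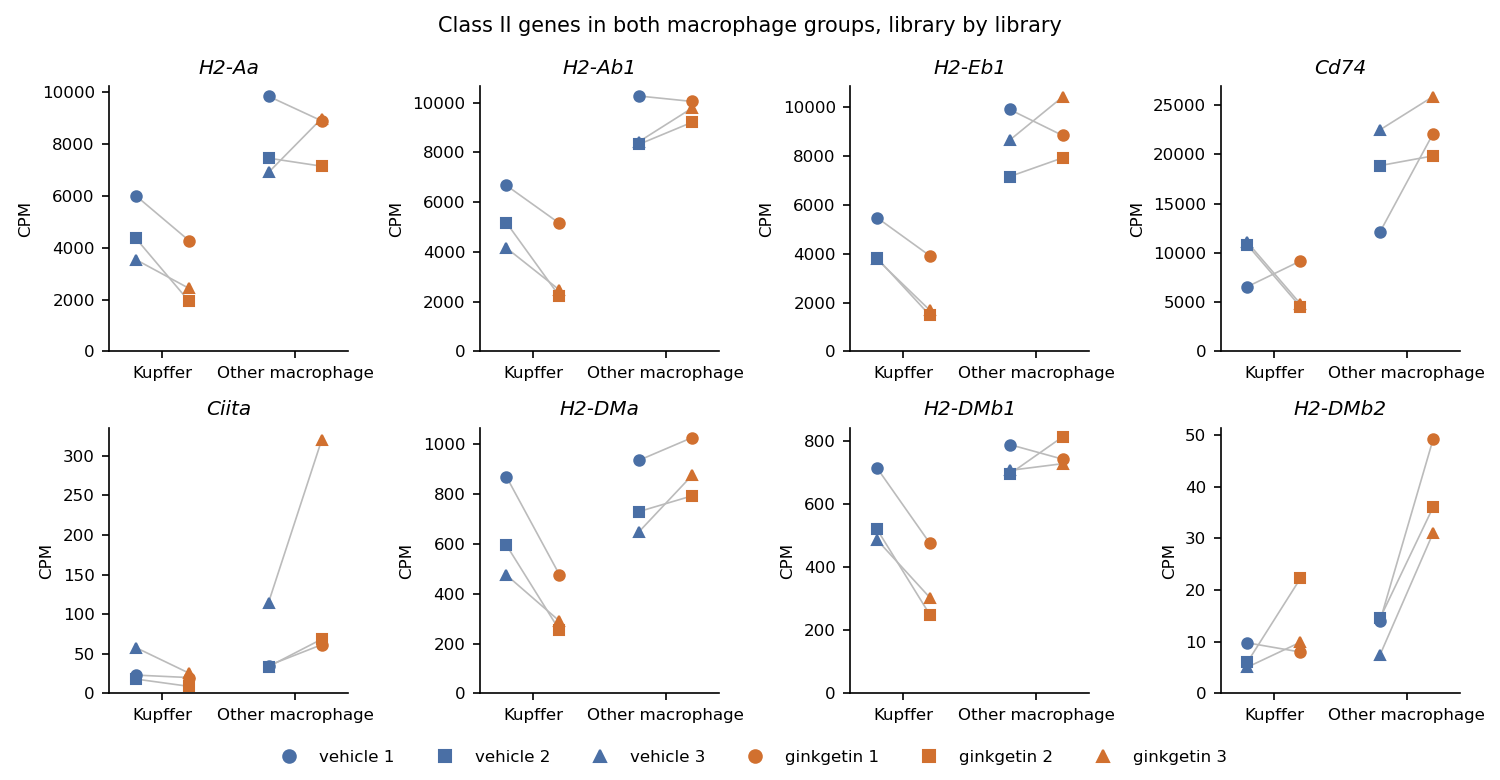
CPM of 8 class II genes in Kupffer-like and other macrophage cells, with 1 point per library and grey lines between the libraries with the same replicate number. In Kupffer-like cells the lines slope down to ginkgetin for H2-Aa, H2-Ab1, H2-Eb1, Ciita, H2-DMa and H2-DMb1 in all 3 pairs, and in other macrophages they do so for none of these 6 genes.

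The Kupffer-like cells of the groups fell into different sub-clusters and differed in depth. A sub-cluster led by Folr2 and Clec4f held 981 vehicle and 36 ginkgetin cells, 1 led by Mmp12 and Mmp13 held 452 and 9, and 1 led by Cd163 and Marco held 7 and 747. Median UMIs per cell were 9967, 6839 and 19970 under vehicle and 2201, 1820.5 and 2181 under ginkgetin. Markers of other cell types moved with the groups too. The sum of the 8 B cell markers was 86.7 to 98.1 CPM against 156 to 318 CPM, that of the 8 endothelial markers 297 to 378 CPM against 1060 to 1848 CPM, and that of the 5 T cell markers 2.88 to 7.58 CPM against 32.01 to 46.7 CPM, and none of these lists had a marker at 0. The sum of the 7 macrophage markers was 18803 to 22484 CPM against 13433 to 16017 CPM, and that of the 7 Kupffer markers 11015 to 14173 CPM against 12226 to 17132 CPM. Within that list Cd163 was 5.50 to 24.9 CPM against 440 to 561 CPM, Marco 54.4 to 92.9 CPM against 563 to 818 CPM and Timd4 71.0 to 79.5 CPM against 321 to 500.1 CPM, so the Kupffer-like cells of the groups differed in their own markers. The part of depth, of sub-cluster and of these markers in the class II values was not tested.

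Values closer in depth were taken from cells with 250 to 5000 UMIs. Under that filter every macrophage-like sub-cluster was named Kupffer-like, also 1 led by Cx3cr1 and Mmp12, so the cells are all macrophage-like cells and not the Kupffer-like cells above, and their medians were 3882, 3524 and 2738 UMIs under vehicle and 2159.5, 1910.5 and 1838 under ginkgetin. There the log2 fold change was -1.22 for H2-Aa, -1.46 for H2-Eb1, -1.15 for H2-DMa and -0.59 for H2-DMb1, and none was called. After thinning each cell to 1000 UMIs, 57.4%, 44.3% and 41.7% of vehicle and 28.1%, 18.4% and 22.7% of ginkgetin Kupffer-like cells held a UMI of H2-DMa. In T cell-like cells it was 1.39% to 4.79% at median depths of 2598 to 6318.5 UMIs. H2-DMa averaged 31.9 CPM in those cells against 9.91 CPM in endothelial-like cells, so they set no background level for it. The Kupffer-like groups did not overlap in this H2-DMa share (exact permutation p 0.1, the smallest possible, and 0.462 after adjustment over 60 comparisons). Genes other than the members were not thinned, so no share of all genes can be set beside it. For H2-Aa in Kupffer-like cells the difference, ginkgetin minus vehicle, ran from -10.5 to -0.54 percentage points over left-out libraries. When cells were assigned 1 by 1 from markers, only 9, 12 and 4 vehicle cells were Kupffer-like, 1 vehicle library entered the fit, and the direction reversed for H2-Aa (log2 fold change 1.37), H2-Ab1 (1.28), H2-Eb1 (1.59), Cd74 (0.84) and H2-DMb1 (0.58).

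Within 1 sub-cluster the groups could be set side by side in replicates 2 and 3. Cells led by Folr2 and Clec4f held 4346 and 3350 CPM of H2-Aa in vehicle replicates 2 and 3 and 1978 and 2837 CPM in the ginkgetin ones. H2-DMa was 627 and 498 CPM against 321 and 324 CPM there. With 36 ginkgetin cells in all, these values were not tested.

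In other macrophages the surface chains, H2-DMa and H2-DMb1 lay close to their vehicle levels. H2-Aa was 9842, 7455 and 6904 CPM under vehicle and 8894, 7145 and 8982 CPM under ginkgetin (log2 fold change -0.18), and H2-DMa was 935, 729 and 648 CPM against 1026, 792 and 875 CPM (-0.00). Ciita was 35.2, 33.8 and 115 CPM against 61.4, 68.4 and 319 CPM in the sum, higher in each pair (log2 fold change 1.03, SE 0.66, adjusted p 0.509; 0.94 with the block, adjusted p 0.0118, a fold under 2). The groups differed in sub-cluster here too: 1 led by Cx3cr1 held 886 vehicle and 100 ginkgetin cells, and 1 led by Anxa1 and S100a4 held 789 and 15. Within the first, H2-Aa was 11323, 8570 and 7209 CPM against 9974, 7100 and 9458 CPM. Ciita was 45.6, 34.0 and 122.8 CPM against 41.9, 67.5 and 346 CPM there, not higher in replicate 1, and the part of the sub-clusters was not tested. None of the 9 members tested was called, and 0.0% of 8557 genes were (1297 had an unadjusted p under 0.05 in edgeR), from 24, 55 and 36 ginkgetin cells. H2-DMb2 was the member with the lowest p, at 14.0, 14.5 and 7.45 CPM against 49.1, 36.0 and 31.0 CPM (log2 fold change 1.42, SE 0.43, adjusted p 0.192). Its groups did not overlap, as for 2 of the 9 members and 15.7% of genes in the higher direction. It passed with the block (1.48, adjusted p 0.0161, where 5.05% of genes passed). Within the sub-cluster led by Cx3cr1, H2-DMb2 was 10.8, 13.8 and 5.42 CPM against 14.0, 37.5 and 33.9 CPM. The B cell markers summed to 58.3 to 61.1 CPM under vehicle and 92.1 to 146 CPM under ginkgetin in the same cells, the cDC2 markers to 18.2 to 35.4 CPM and 61.4 to 108 CPM, and the cDC1 markers to 58.1 to 79.0 CPM and 97.2 to 118 CPM. T cell markers summed to 3.21 to 7.39 CPM against 12.4 to 43.2 CPM there, and endothelial markers to 48.7 to 80.6 CPM against 146 to 926 CPM. The cDC2 list includes Klrd1 and is not particular to cDC2. It summed to 823 to 1215 CPM in NK cell-like and 602 to 1397 CPM in dendritic-like cells. The part of these other markers in the H2-DMb2 value was not tested.

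The difference between both macrophage kinds was tested as a class-by-group term with the library as a block, a comparison added after the values had been seen. The effect of ginkgetin in Kupffer-like cells minus that in other macrophages was -2.63 for Ciita (adjusted p 2.38e-10), -1.30 for H2-DMa (4.46e-06), -1.23 for H2-Eb1 (0.000161), -1.17 for Cd74 (0.000196) and -1.03 for H2-Ab1 (0.00131), all called, as were 3.65% of 10155 genes. The Ciita difference is made of values on both sides, -1.21 in Kupffer-like cells and 1.03 in other macrophages. H2-DMb1 (-0.99) and H2-Aa (-0.92) had adjusted p-values of 0.0013 and 0.0029 but a fold under 2. Without the library block none was called, and without ginkgetin replicate 3 only 1 was, H2-DMa (1.73% of genes).

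All macrophage-like cells summed gave 1 member close to the threshold. Their make-up differed between the groups: other macrophages were 46.6%, 50.5% and 64.5% of these cells under vehicle and 21.2%, 21.9% and 6.63% under ginkgetin. H2-Eb1 averaged 8807 CPM in other macrophages and 3355 CPM in Kupffer-like cells, and the part of the make-up in the values of the sum was not tested. H2-Ob was 4.39, 2.26 and 3.19 CPM under vehicle and 7.27, 19.3 and 14.2 CPM under ginkgetin (log2 fold change 1.63, SE 0.41, edgeR adjusted p 0.0508). The groups did not overlap, and with the block it passed (1.70, adjusted p 0.0161), as did H2-Eb1 in the other direction (-1.06, adjusted p 0.0292), against 13.9% of genes. H2-DMb2 also lay higher in every ginkgetin library (6.49 to 11.6 CPM against 13.2 to 27.5 CPM), and 29.8% of genes did not overlap in that direction, while H2-DMb1 did not overlap in the lower one (7.49% of genes). T cell-like cells of the same libraries held 4.68 to 10.1 CPM of H2-Ob. The B cell marker sum in macrophage-like cells was 74.3 to 77.9 CPM under vehicle and 131 to 258 CPM under ginkgetin. Its part in the H2-Ob and H2-DMb2 values was not tested.

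In B cell-like cells, 9 of the 10 members were below 0 and 4 did not overlap between groups, against 7.92% of all genes in that direction. H2-Ab1 was 4357, 3567 and 3647 CPM under vehicle and 1965, 1652 and 2891 CPM under ginkgetin (log2 fold change -0.93, SE 0.33, edgeR adjusted p 0.374). All 3 ginkgetin libraries were below all 3 vehicle libraries, also for H2-Eb1 (3625 to 3925 CPM against 2471 to 3094 CPM), H2-DMa (483 to 584 CPM against 359 to 440 CPM) and H2-DMb2 (464 to 677 CPM against 409 to 414 CPM). The adjusted p-values of these were 0.481 to 0.501, and the block called none of the 10 (1.63% of genes were). Cells with a UMI of H2-Aa, thinned to 1000 UMIs, were 98.7%, 95.5% and 96.6% under vehicle and 91.2%, 90.3% and 92.6% under ginkgetin (exact permutation p 0.1, adjusted p 0.462), against 1.25% to 11.6% of T cell-like cells. Most cells of replicates 1 and 2 formed 1 B cell cluster and those of replicate 3 another. Macrophage markers summed to 181 to 212 CPM in vehicle and 51.0 to 113 CPM in ginkgetin B cell-like cells, the 8 endothelial markers to 121 to 144 CPM and 241 to 986 CPM, and their part in these values was not tested.

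Dendritic-like cells, with medians of 7625 to 15472 UMIs per cell, had a median log2 fold change of -0.23. Monocyte-like cells (-0.12) and other macrophages (-0.001) lay nearer to 0. The cDC1-like cells were 128 of 413, 62 of 185 and 106 of 338 dendritic-like cells under vehicle. Under ginkgetin they were 68 of 124, 117 of 237 and 53 of 128, and the part of this in the dendritic-like values was not tested. H2-Eb1 was 9635, 7374 and 9403 CPM under vehicle and 6462, 5251 and 7955 CPM under ginkgetin (log2 fold change -0.44, SE 0.26, edgeR adjusted p 0.45). The groups overlapped, and the value was lower in each same-numbered pair. H2-DMb1 was 734, 653 and 740 CPM against 626, 530 and 504 CPM (log2 fold change -0.33, adjusted p 0.565), the 1 member without overlap, as for 11.8% of genes. Ciita and H2-Ob lay above 0 (log2 fold changes 0.52 and 0.20), and Ciita was higher in each same-numbered pair (log2 ratios 0.35, 0.28 and 0.78) but not called with the block (0.47, adjusted p 0.16). It was at -0.25 without ginkgetin replicate 3, which leaves vehicle replicate 3, high in Ciita, with no counterpart. The block called no member (2.46% of genes). Macrophage markers summed to 345 to 808 CPM under vehicle and 203 to 278 CPM under ginkgetin in dendritic-like cells, and endothelial markers to 93.1 to 132 CPM and 257 to 909 CPM, and their part in these values was not tested.

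Monocyte-like cells, the circulating precursors of macrophages, spread widely under ginkgetin. H2-Aa was 2875, 2688 and 1915 CPM under vehicle and 3339, 1109 and 1316 CPM under ginkgetin (log2 fold change -0.40, adjusted p 0.767). Ginkgetin replicate 1 was the highest library and the other two were the lowest, and the block called no member (3.01% of genes). H2-Ob was the member without overlap, at 4.22 to 5.46 CPM against 5.91 to 13.7 CPM (9.18% of genes), where T cell-like cells held 4.68 to 10.1 CPM. Among the 308 patrolling monocyte-like cells, the Ace- and Cd300e-marked kind that stays in vessels, H2-Aa was 1106, 1228 and 871 CPM against 502, 349 and 745 CPM (log2 fold change -1.05, SE 0.32, adjusted p 0.353). H2-Ab1 and H2-DMa did not overlap either (log2 fold changes -0.95 and -0.90, adjusted p 0.353 for both), against 9.38% of genes, and all 6 members tested there were below 0. In the 1863 classical monocyte-like cells 3 of 8 members were below 0, with a median log2 fold change of 0.0083. Patrolling cells were 77 of 768, 43 of 423 and 63 of 552 monocyte-like cells under vehicle and 28 of 105, 51 of 199 and 46 of 124 under ginkgetin, and the part of this in the monocyte-like values was not tested. Over all monocyte-like cells, macrophage markers summed to 2045 to 2588 CPM under vehicle and 991 to 1632 CPM under ginkgetin, and endothelial markers to 34.2 to 63.3 CPM and 110 to 803 CPM, and their part in these values was not tested.

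Endothelial-like cells held UMIs of H2-Aa, H2-Ab1, H2-Eb1 and Cd74 at levels close to those of T cell-like cells. H2-Aa was 171, 88.4 and 59.8 CPM under vehicle and 46.9, 94.2 and 19.8 CPM under ginkgetin in endothelial-like cells. T cell-like cells of the same libraries held 120, 79.6 and 40.9 CPM and 39.6, 84.8 and 14.7 CPM. The 6 libraries had the same order in both classes, and the ratio of the first to the second was 1.42, 1.11 and 1.46 under vehicle and 1.18, 1.11 and 1.35 under ginkgetin, with overlap between the groups. For H2-Ab1, H2-Eb1 and Cd74 this ratio ran from 0.797 to 1.65. H2-DMa and H2-Oa lay below the T cell-like level, with ratios of 0.0815 to 0.566 and of 0 to 0.454.

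**Figure D5:**
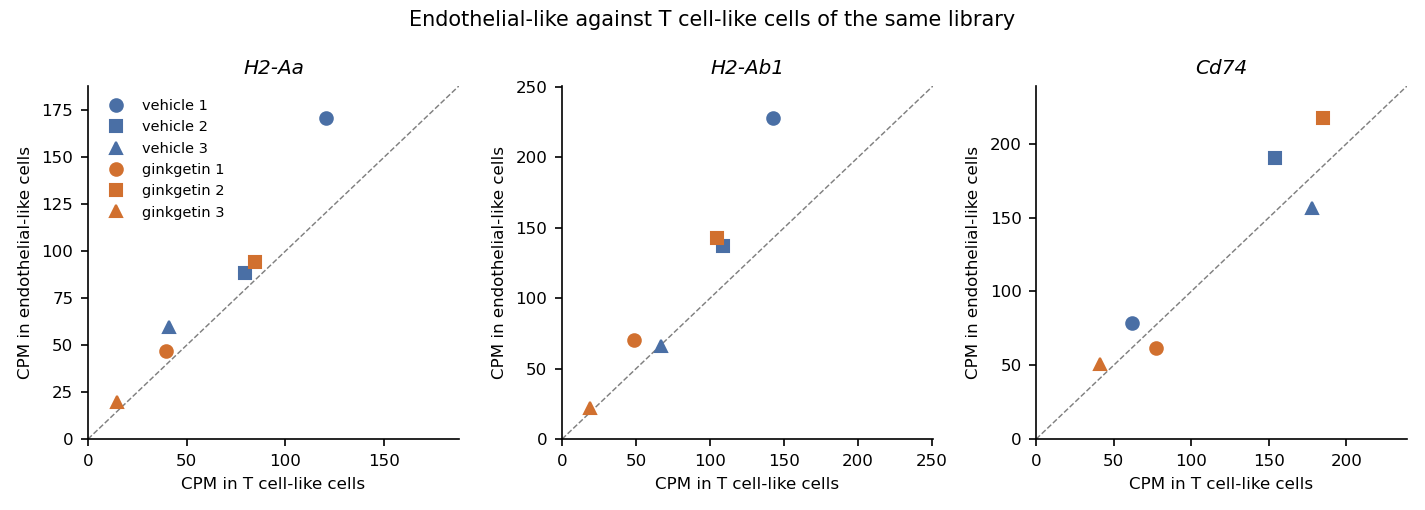
CPM in endothelial-like cells (y axis) against CPM in T cell-like cells (x axis) for H2-Aa, H2-Ab1 and Cd74, with 1 point per library and a dashed line at equality. The points follow the line in every panel, with H2-Aa 1.11 to 1.46 times the T cell-like value.

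After thinning to 1000 UMIs, 15.4%, 9.09% and 6.46% of vehicle and 4.73%, 8.03% and 1.40% of ginkgetin endothelial-like cells had a UMI of H2-Aa, against 11.6%, 6.94% and 5.43% and 3.24%, 9.61% and 1.25% of T cell-like cells. Median depths before thinning were 2248 to 7579 UMIs in endothelial-like and 2598 to 6318.5 UMIs in T cell-like cells. T cells do not normally make I-A in mice, and the shares of both classes lay close together. Whether the UMIs in endothelial-like cells were background or low expression was not tested. Ciita had 35 UMIs over all 7196 endothelial-like cells. H2-Aa (log2 fold change -1.15, SE 0.71, adjusted p 0.551) and H2-Ab1 (-1.04, SE 0.80, adjusted p 0.649) passed with the block (-1.29 and -1.23, adjusted p 0.032 and 0.0295), against 4.53% of genes. The summed macrophage markers were 192 to 307 CPM in vehicle and 54.6 to 122 CPM in ginkgetin endothelial-like cells, and 148 to 223 CPM against 26.8 to 84.2 CPM in T cell-like cells, and their part in the class II values was not tested. The clusters that hold the endothelial-like cells also differed: 2 were mostly vehicle (1510 and 41 cells, 295 and 7) and 3 mostly ginkgetin (40 and 3421, 14 and 961, 12 and 895).

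Whether the ginkgetin effect differed from that in B cell-like cells was tested as a class-by-group term with the library as a block. Only members that had passed the filter in both classes were counted, which leaves H2-Oa and H2-Ob out in Kupffer-like cells. H2-Ob differed by 1.79 (adjusted p 0.0071) and H2-DMb2 by 1.27 (0.0171) in macrophage-like cells. Ciita differed by -1.66 in Kupffer-like cells (0.0101). These were 2 of 10 members, against 2.97% of 9370 genes, in macrophage-like and 1 of 8, against 4.08% of 9434, in Kupffer-like cells, and none was called in dendritic-like (0.0632% of genes), monocyte-like (0.261%) or endothelial-like cells (0.244%). Without the library block none was called in any class, and without ginkgetin replicate 2 endothelial-like cells had 3 (1.12% of genes). Kupffer-like cells had 5 without ginkgetin replicate 1 (3.75% of genes), 2 without vehicle replicate 3 (3.19%) and 0 without ginkgetin replicate 3 (5.15%). In macrophage-like cells 1 was called when any vehicle library or ginkgetin replicate 2 was left out (1.6% to 2.73% of genes). With cells of 250 to 5000 UMIs none was called in macrophage-like cells, all of which were named Kupffer-like there (1.71% of genes).

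Of 29 other genes of the pathway that had been listed, 25 were in the tables and 21 to 25 were tested in a class. Called genes were 1 higher and 1 lower of 24 in macrophage-like and 1 higher and 2 lower of 24 in Kupffer-like cells, where 8.42% and 9.16% of all genes were called, and none in the other 4 classes. The median log2 fold change of the list lay between -0.27 in B cell-like and 0.21 in Kupffer-like cells. Rfx5, a subunit of the RFX complex at class II promoters, rose in Kupffer-like cells from 4.55, 4.62 and 5.91 CPM to 20.0, 17.8 and 22.2 CPM (log2 fold change 1.55, edgeR adjusted p 0.0221). All ginkgetin libraries were above all vehicle libraries, also over all macrophage-like cells (1.45, adjusted p 0.0278), as for 29.7% of genes in Kupffer-like and 29.8% in macrophage-like cells in the higher direction.

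Ctsd, the lysosomal protease cathepsin D, fell in Kupffer-like cells from 2897, 2657 and 4385 CPM to 1232, 1563 and 1821 CPM (log2 fold change -1.52, adjusted p 0.0195) and in macrophage-like cells by 1.66 on the log2 scale (adjusted p 0.0199). Cd86, a costimulatory ligand of CD28, fell in Kupffer-like cells from 157, 156 and 245 CPM to 88.0, 89.1 and 141 CPM (log2 fold change -1.22, adjusted p 0.0236). The groups did not overlap for either gene, as for 8.79% of genes in the lower direction. In macrophage-like cells Cd86 had a log2 fold change of -0.72 (adjusted p 0.0491), a fold under 2. These 5 calls of Rfx5, Ctsd and Cd86 held when vehicle replicate 3 was left out, and none of them held when any 1 of the other 5 libraries was, with adjusted p-values of 0.0505 to 0.151. Over all 6 left-out libraries the log2 fold change in Kupffer-like cells ran from 1.42 to 1.57 for Rfx5, from -1.65 to -1.40 for Ctsd and from -1.45 to -1.09 for Cd86. In all macrophage-like cells of 250 to 5000 UMIs it was -1.24 for Ctsd and -0.82 for Cd86 (adjusted p 0.060 and 0.0894). The depth, sub-clusters and marker sums given above for Kupffer-like cells differ between the groups here too, and their part was not tested.

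In the other 4 classes no listed gene passed without the block, and the 3 with the lowest p-values are given for each. In B cell-like cells these were H2-Eb2, another class II beta chain (log2 fold change -0.98), Ctss, the protease of the last invariant chain step (-0.996), and Cd83, which holds class II at the surface (-1.26), all with an adjusted p of 0.339. Cd83 was 209, 296 and 402 CPM against 129, 71.0 and 215 CPM, overlapped by ginkgetin replicate 3, and passed with the block (-1.29, adjusted p 0.031), as did 1.63% of all genes. In dendritic-like cells they were Ctss (-0.94), Ctsd (-1.005) and the asparaginyl protease Lgmn (-0.87), with adjusted p-values of 0.171 to 0.22, and Ctsd passed with the block (0.045; 2.46% of genes did). In monocyte-like cells Lgmn was 393, 363 and 442 CPM against 152, 142 and 157 CPM (-1.47, adjusted p 0.114; 0.0103 with the block), followed by Ctsd (-1.25, adjusted p 0.17; 0.0264 with the block) and Ctsl (-1.21, 0.213), where 3.01% of genes passed with the block. In endothelial-like cells Ctss (-2.37, adjusted p 0.224; 0.0014 with the block) came first, before Rfx5 (0.55) and Ctsb (-0.55), where 4.53% of genes passed with the block. The macrophage marker sums given above were lower under ginkgetin in all 4 of these classes, and their part in the values of these genes was not tested.

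Genes whose levels followed the members most closely were sought over 77 sums of class and library, which share libraries and depth, among 8828 genes. Pearson's r with the mean log2(CPM + 1) of H2-Aa, H2-Ab1, H2-Eb1 and Cd74 was highest for Spi1 (0.915), which encodes the myeloid and B cell factor PU.1, Erp29 (0.907), Ly86 (0.904), Rassf4 (0.89999) and Pkib (0.896). Spi1 stood at 49.6 to 106 CPM in B cell-like and 267 to 597 CPM in Kupffer-like cells. Closest to Ciita came a row that is listed under a date in the tables, so that its gene cannot be told (0.863), then Cd180 (0.836), a partner of Ly86 on B cells, and Fgd2 (0.824). H2-Ob was followed by Siglecg (0.887), Btla (0.858) and Tnfrsf13c (0.807), which encode an inhibitory lectin, a lymphocyte attenuator and the BAFF receptor, and Siglecg was at 132 to 338 CPM in B cell-like cells. Among the members, H2-DMa (0.924), H2-DMb1 (0.928) and Ciita (0.842) followed the mean of the 4 genes more closely than H2-DMb2 (0.724), H2-Ob (0.517) and H2-Oa (0.489), and H2-Ob was closest to H2-DMb2 (0.843) and H2-Oa (0.837).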

How the data were processed

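The deposited tables hold raw UMI counts per gene and barcode, 1 table a library, made by the authors from 10x Genomics droplet libraries of liver non-parenchymal cells and not normalized. The study's methods and the sample descriptions name the 10x system, while the extraction text of the labels names a SMARTER mRNA kit; per the labels the build was GRCm38 (mm10), and the aligner is not given in the sources used here. Totals were 13128697 to 61796882 counts a library. Every barcode was mapped to a library and group by the labels, and 0 columns were mapped to no sample.

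The study's methods keep cells of 250 to 5000 UMIs with under 5% mitochondrial genes. Here that range was applied to genes detected per cell, and the UMI range, under which 16821 cells were kept and no cluster was named dendritic-like, was an alternative. Cells were clustered in scanpy 1.11.5 (2000 variable genes without the members and pathway list, 30 components, 15 neighbours, Leiden at resolution 1, macrophages again at 0.5), centred within each barcode set. A cluster was named with at least 3 markers detected (in 25% of its cells and at 2 times the other cells' mean). No doublets were removed, and leaving out the 5% highest scores was an alternative. In macrophages, 59 cells of sub-clusters led by other cells' markers were left out.

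Counts were summed per library and class (10 cells or more) and tested in edgeR 4.0.16 (TMM, filterByExpr, quasi-likelihood, group alone). DESeq2 1.42.0 and limma 3.58.1 were alternatives. Class-by-group terms count the members that passed the filter in both classes, a limit set after the values had been seen. Same-numbered libraries correlated at 0.391 to 0.907 in their deviations from the group means (18 pairs), all above 0.1, so by that limit the replicate number was taken to pair them. A shift of replicate 3 alone moves the deviations of replicates 1 and 2 together in both groups, so this limit could not show pairing. Libraries of replicates 1 and 2 with different numbers correlated about as highly (0.351 to 0.658) as those of replicates 1 and 2 with the same number (0.391 to 0.678), and replicate 3 had its own barcode set (0.781 to 0.907 with each other, -0.81 to -0.438 with replicates 1 and 2), so a block on the barcode set is given beside it. On simulated counts the step recovered 161 of 200 genes changed 4-fold with 7 false calls of 6720 genes in B cells, and 160 of 200 with 8 false calls of 9618 in macrophages. The simulated libraries shared a fixed dispersion and the same gene profile, without the shift of replicate 3. These rates therefore check the step and do not give its power in these libraries. Shares of cells were taken after thinning to 1000 UMIs, which left out 23 vehicle and 112 ginkgetin cells, and compared by two-sided exact permutation tests.

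The members, pathway list and markers were chosen with earlier results of these data known. Named genes were all 10 members, the pathway genes called or among the 3 lowest p-values in a class, and the genes most like the members' levels (5 for the mean of 4 genes, 3 each for Ciita and H2-Ob, of 10 CPM or more). Pathway genes whose symbols appear as dates were not used here. Ifi30 is at 0 in replicate 3 and its block calls rest on replicates 1 and 2.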

Additional observations from a re-analysis of the deposited data

Results flagged for a closer look

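The effect of ginkgetin differed between cell classes for the values below, by an edgeR class-by-group term with the library as a block, and it did so for none of them when that block was left out. Against B cell-like cells, H2-DMb2 and H2-Ob stood out in macrophage-like cells by 1.27 and 1.79 on the log2 scale. Kupffer-like cells differed from B cell-like cells by -1.66 for Ciita. Against other macrophages, Kupffer-like cells differed by -1.03 for H2-Ab1, -1.23 for H2-Eb1, -1.17 for Cd74, -2.63 for Ciita and -1.30 for H2-DMa, a comparison chosen after the values had been seen. In cells of 250 to 5000 UMIs none of the differences from B cell-like cells was called in macrophage-like cells, all of which were named Kupffer-like there. B cell markers summed to 74.3 to 77.9 CPM under vehicle and 131 to 258 CPM under ginkgetin in macrophage-like cells, and to 86.7 to 98.1 CPM and 156 to 318 CPM in Kupffer-like cells. H2-Ob stood at 4.68 to 10.1 CPM in T cell-like cells, against 2.26 to 19.3 CPM in macrophage-like cells, and the part of these in the differences was not tested.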

How the results depend on the processing

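Of 1041 alternative fold changes of the members, 970 kept their direction and side of the threshold, 32 newly passed it and 39 reversed. No member was past the threshold to begin with, so none could be lost. With the replicate block the members called came to 7 in Kupffer-like, 2 in macrophage-like and 2 in endothelial-like cells, against 0 without it, and with a barcode-set block to 7, 2 and 3. The replicate block changed no call of a member in B cell-like, dendritic-like or monocyte-like cells. DESeq2 called 3 in Kupffer-like and 1 in macrophage-like cells, and limma-voom called 1 in macrophage-like cells (10.0% of all genes). Without a cell filter 1 was called in each of both classes (12.5% of genes in macrophage-like and 11.6% in Kupffer-like cells). In Kupffer-like cells replicates 1 and 2 alone gave 2 (13.1%) and no centring by barcode set gave 1 (9.93%), and leaving out a library gave 0 to 1. The class-by-group counts were 0 without a library block for macrophage-like and Kupffer-like against B cell-like cells and for Kupffer-like against other macrophages. In cells of 250 to 5000 UMIs they were 0 for macrophage-like cells, all named Kupffer-like there and so 1 result, and 3 for monocyte-like cells (0.65% of genes). Leaving out a library gave 1 to 2 in macrophage-like (1.6% to 2.75% of genes), 0 to 5 in Kupffer-like (2.3% to 5.15%) and 0 to 3 in endothelial-like cells (0.073% to 1.53%) against B cell-like cells, and 1 to 7 in Kupffer-like against other macrophages (1.73% to 3.9%). Assigning cells 1 by 1 put 7 members highest in dendritic-like cells and 0 in other macrophages.

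Reversed log2 fold changes were mostly close to 0, and the cause was not tested. The settings without centring, with replicates 1 and 2 alone, with subtypes of a class alone and with other macrophages as the reference were chosen after seeing the data. For the Ciita log2 fold change, B cell-like cells gave -0.013 with the replicate block, -0.0081 with the barcode-set block, -0.0283 in limma-voom and -0.040 in replicates 1 and 2 alone, with -0.94 to 0.89 over left-out libraries. In cDC1-like cells H2-Oa was 0.084, and in cDC2-like cells H2-DMa was 0.0041 and H2-DMb2 was 0.12. Other macrophages alone gave 0.12 for Cd74 and 1.03 for Ciita. Assigning cells 1 by 1 gave 1.37 for H2-Aa, 1.28 for H2-Ab1, 1.59 for H2-Eb1, 0.84 for Cd74 and 0.58 for H2-DMb1 in Kupffer-like cells, where only 1 vehicle library was left and was assumed to vary like the others, and 0.035 for Cd74 in endothelial-like cells. In monocyte-like cells Cd74 was 0.12 and H2-DMb1 was 0.058 in replicates 1 and 2 alone, Cd74 was 0.032 without centring, and classical monocyte-like cells gave 0.012 for Cd74, 0.0052 for H2-DMa and 0.070 for H2-DMb1. Over left-out libraries the ranges were -0.25 to 1.19 for Ciita and -0.44 to 0.0049 for H2-DMb2 in dendritic-like, -0.84 to 0.29 for Ciita and -0.024 to 0.33 for H2-Oa in macrophage-like and -0.16 to 0.84 for H2-DMb2 in Kupffer-like cells. In monocyte-like cells they were -0.83 to 0.13 for Cd74, -0.65 to 0.15 for H2-DMb1, -0.78 to 0.069 for H2-DMa, -0.32 to 1.19 for Ciita and -1.25 to 0.017 for H2-Ab1. No dendritic-like cluster was named in cells of 250 to 5000 UMIs, so the dendritic values, the order of classes and the H2-O share were not recomputed there. The depth of Kupffer-like cells and the few ginkgetin macrophages limit what can be said of them, and Ciita, H2-Oa and H2-Ob rest on few UMIs outside B cell-like and dendritic-like cells. Cells in no named class and doublet scores were not followed further.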
